A study of Mus musculus and Homo sapiens with 32 samples.

Results

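The genes described here are 6 mouse genes of the DNA methylation cycle, followed on the RNA side: the TET oxidase genes Tet1 and Tet2, the maintenance methyltransferase gene Dnmt1, the de novo methyltransferase genes Dnmt3a and Dnmt3b, and Dnmt3l, which encodes their cofactor. They were taken by symbol from the deposited files, as 6 of the 11200 mouse genes that have a listed position. Of the 33473 regions in the authors' deposited table of the Mettl3 comparison, 45 belong to them, namely 10 of Tet1, 8 of Tet2, 19 of Dnmt1, 4 of Dnmt3a, 3 of Dnmt3b and 1 of Dnmt3l.

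DNA methyltransferases place a methyl group on cytosine in DNA. Dnmt1 copies the mark after replication, Dnmt3a and Dnmt3b place it anew, and Dnmt3l, which has no catalytic activity of its own, stimulates both. TET enzymes oxidise methylcytosine, a step on the way to its removal, and Tet1 and Tet2 are the TET enzymes best known in mouse embryonic stem cells. N6-methyladenosine (m6A) is a different mark, a methyl group on adenosine in RNA, set on many messenger RNAs by a writer complex whose catalytic subunit is Mettl3. The values below concern m6A signal along the transcripts of these genes, not methylation of DNA.

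The assay, m6A-CT, tagments RNA paired with cDNA in nuclei where an anti-m6A antibody has bound, and its input libraries are tagmented without antibody. The series holds 32 libraries in 16 groups of 2, 8 m6A-CT groups each with an input group. The genotype set consists of C57BL/6 mouse embryonic stem cells labelled Mettl3-/- (KO) and C57BL/6 wild-type mouse embryonic stem cells, both with an antibody from MilliporeSigma. The other mouse groups are the embryonic stem cell line E14, in a series of 5K, 25K and 100K nuclei per sample, and, at 100K nuclei each, expanded potential stem cells (EPSC), whose cell line is also given as E14, and mouse embryonic fibroblasts of CF1 (MEF). All of these were made with an antibody from Synaptic Systems and their nuclei were prepared in a detergent mix that differed by cell type. The labels give no clone, passage or culture condition for any of them, nor a nuclei number for the genotype set. Because antibody and cells differ together, values of the genotype set and of the other lists were not compared. Human HEK293T libraries were not used here.

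The files hold no value per library. The genotype table has 1 pooled column per genotype and library kind, and each other mouse group has 1 peak list, so no replicate error can be given. Whether the 2 libraries of a group came from separate cultures is not given either. All intervals are 95% intervals that cover counting error only. The pooled columns held 37532658 reads for Mettl3 KO m6A-CT, 51031598 for Mettl3 KO input, 39310394 for wild-type m6A-CT and 45090626 for wild-type input. Regions of Lars2 and of the ribosomal RNA precursor Rn45s took up much of these totals, leaving 45.5% and 19.0% of reads in Mettl3 KO m6A-CT and input and 63.5% and 23.6% in wild-type m6A-CT and input. Values are given in RPM, the reads of a region scaled to a common total of all reads, and where a direction changes when these 2 genes are left out of the totals, that is said beside it. Leaving them out raises every log2 change of m6A-CT over input by 0.17, of input by 0.31 and of m6A-CT by 0.48. It also divides every ratio of m6A-CT to input by 2.40 in Mettl3 KO and by 2.69 in wild-type, so whether a ratio lies above or below 1 depends on these totals, while the order of ratios within a genotype does not.

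The labelled cell types were checked against marker genes. Of 12 naive pluripotency markers, 9, 7 and 9 had a peak in E14 at 5K, 25K and 100K nuclei, 7 in EPSC and 2 in MEF. Of the 6 fibroblast markers with a listed position, 5 had a peak in MEF and 0 in the 4 stem cell lists; Col1a1, Col1a2, Col3a1, Thy1, Pdgfrb and Prrx1 have no listed position. In the inputs of the genotype set, the naive markers summed to 908 RPM in Mettl3 KO and 1228 RPM in wild-type, and the fibroblast markers to 3.64 RPM in Mettl3 KO and 1.15 RPM in wild-type. The 3 endoderm and trophectoderm markers with a position summed to 2.72 RPM in Mettl3 KO and 4.28 RPM in wild-type. The part that these marker genes play in the results below was not tested. Mettl3 itself had 1 listed region (chr14:52919391-52919765, mm9), with 2.47 RPM of input in Mettl3 KO and 1.71 RPM in wild-type, a log2 difference of 0.53 (0.12 to 0.94). The deleted part of the gene is not given in the labels, so this region does not check them.

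In the genotype comparison, the listed regions of the TET genes were lower in Mettl3 KO and most of those of Dnmt1, Dnmt3a and Dnmt3b higher. All 18 listed regions of Tet1 and Tet2 fell in Mettl3 KO in the authors' deposited table (exomePeak2 FDR under 0.05), while 15 of 19 regions of Dnmt1, 3 of 4 of Dnmt3a and all 3 of Dnmt3b rose. On the RPM scale without Lars2 and Rn45s in the totals, 3 of the Tet1 regions and 1 of Dnmt1 change from lower to slightly higher. Over all 6 genes, 24 regions were lower and 21 higher, where 89% of the 33395 regions of the table with an FDR were called lower and 11% higher. The table lists almost only called regions (33391 called, 4 not, 78 with no FDR), so that each member region passed is not itself a result. Taken from the RPM columns with no offset of the authors' model, 23 of the 44 regions with reads in every column were lower, against 87.8% of all regions, and without Lars2 and Rn45s in the totals 19 were lower, against 83.4% of all regions. A counting test on the reads behind the RPM values called 10 of the member regions lower and 21 higher, against 55.3% and 10.9% of all 33473 regions. The 10 were 3 regions of Tet1 and 7 of Tet2, and the 21 were the regions of Dnmt1, Dnmt3a and Dnmt3b that were higher in the authors' table.

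**Figure D1:**
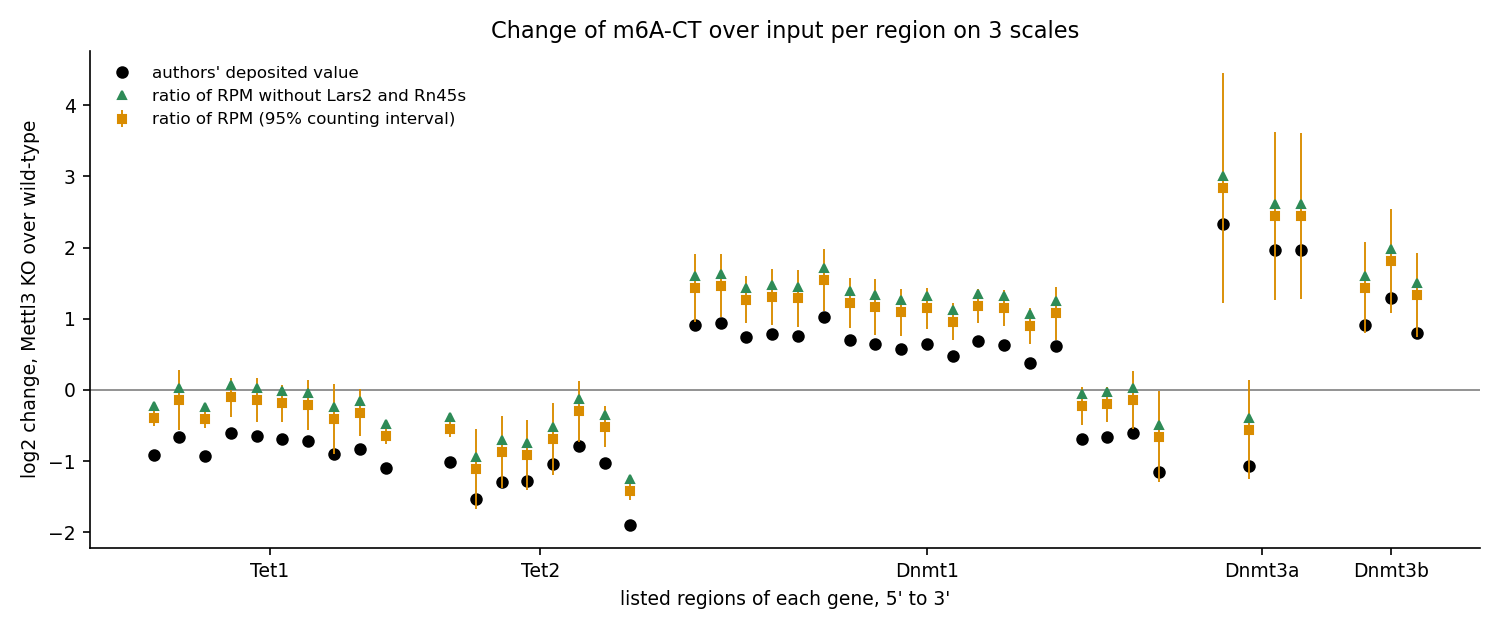
Log2 change in Mettl3 KO over wild-type of the m6A-CT over input ratio for each listed region of Tet1, Tet2, Dnmt1, Dnmt3a and Dnmt3b, in 5′ to 3′ order; circles are the authors' deposited values, squares the ratio of RPM with its 95% counting interval, and triangles the same without Lars2 and Rn45s in the totals. All circles of Tet1 and Tet2 lie below 0, and those of Dnmt1 change side between its first 15 and last 4 regions.

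m6A-CT RPM exceeded input RPM in 42 of the 45 member regions in Mettl3 KO and in 40 in wild-type, against 81.1% and 91.8% of all regions. Without Lars2 and Rn45s in the totals it did so in 37 in Mettl3 KO and in 21 in wild-type, against 37.8% and 61.7% of all regions. All 18 regions of Tet1 and Tet2 were above input in both genotypes under either total. Of the 19 Dnmt1 regions, all were above input in both genotypes with full totals, and 15 in Mettl3 KO and 1 in wild-type without the 2 genes. Input RPM, a measure of how much of the RNA was tagmented without antibody, was lower in Mettl3 KO in 41 of the 44 regions where it could be compared, against 51.1% of all regions. Without Lars2 and Rn45s in the totals it was lower in 35 of the 44, against 32.7% of all regions. Input and the m6A-CT over input ratio were both lower in the TET genes, while in the 5′ regions of Dnmt1 input was lower and the ratio higher, as given gene by gene below. Input is the denominator of the ratio, so a change of input enters the ratio directly. Any further link between input level and the ratio was not tested. In bulk nuclei, fewer cells with a transcript and less of it per cell cannot be told apart.

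**Figure D2:**
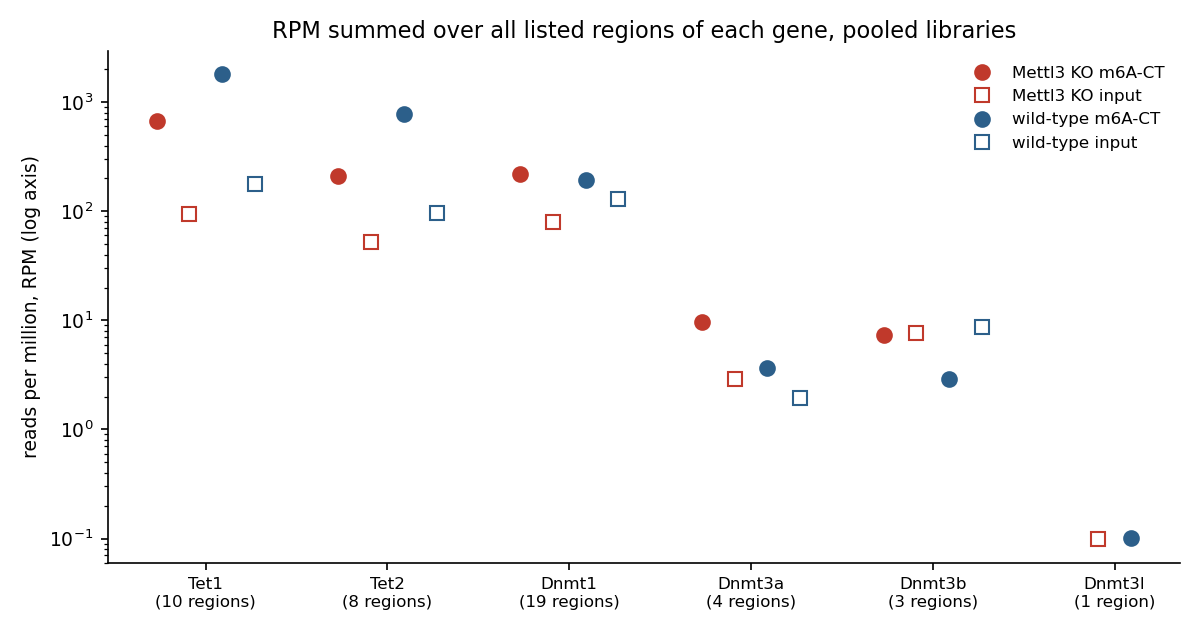
RPM on a log axis, summed over all listed regions of each gene, in the pooled Mettl3 KO (left pair, red) and wild-type (right pair, blue) columns; filled circles are m6A-CT and open squares input, and columns without reads are not drawn. Tet1 shows 671 RPM of m6A-CT in Mettl3 KO and 1813 in wild-type, while Dnmt1 shows 218 in Mettl3 KO and 193 in wild-type; regions differ in length between genes, so levels are to be compared within a gene.

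Tet1, on the minus strand of chromosome 10, had the highest ratio of m6A-CT to input among those of the 6 genes with reads in every column. Over its 10 regions together, m6A-CT stood at 671 RPM in Mettl3 KO and 1813 RPM in wild-type, and input at 95 RPM in Mettl3 KO and 178 RPM in wild-type. The ratio of m6A-CT to input was 7.06 (6.85 to 7.29) in Mettl3 KO and 10.2 (9.95 to 10.4) in wild-type. It was 2.94 in Mettl3 KO and 3.78 in wild-type without Lars2 and Rn45s in the totals. The intervals with full totals do not overlap, yet the ratio in Mettl3 KO remained above the median ratio over all regions, which was 1.90 in Mettl3 KO and 3.34 in wild-type with full totals.

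Along the transcript the Tet1 ratio differed between its 2 ends in both genotypes, without a steady order between them. A 2175 bp region (chr10:62300937-62303111) stood above its neighbours at 7.42 in Mettl3 KO and 9.87 in wild-type. The ratio was lowest in the 1975 bp region nearest the 5′ end (chr10:62340906-62342880), at 4.30 (4.07 to 4.55) in Mettl3 KO and 5.67 (5.43 to 5.93) in wild-type. It was highest in the 3′-most region, a block of 8825 bp at chr10:62267318-62276142 that holds more reads than the other 9 each do. There m6A-CT was at 246 RPM in Mettl3 KO and 854 RPM in wild-type, input at 23.3 RPM in Mettl3 KO and 51.7 RPM in wild-type, and the ratio at 10.5 (9.92 to 11.2) in Mettl3 KO and 16.5 (15.9 to 17.2) in wild-type. Among 5336 genes with at least 50 reads in each column of their read-richest region, 45 had a higher ratio than Tet1 in Mettl3 KO and 75 in wild-type. Whether these blocks are coding or untranslated was not assigned, since no mm9 annotation was used here.

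The decrease of Tet1 was smaller than the median over all listed regions, almost all of which are called ones. In the authors' deposited table its log2 changes ran between −1.10 in the 8825 bp block (exomePeak2 FDR 2.96e-88) and −0.60 in a 75 bp region (FDR 0.000292), with a median of −0.77, where the median over all regions was −1.35. On the RPM scale the summed change was −0.53 (−0.58 to −0.47) and its single regions lay between −0.65 and −0.10. The median over all single regions was −0.82. The ratio intervals of the genotypes overlapped in 7 of the 10 regions, all of them of 25 to 225 bp. Only the 5′-most region, the 2175 bp region and the 3′ block were lower by the counting test, and without Lars2 and Rn45s in the totals 3 of the 7 others turned to slightly higher values, up to 0.06. The log2 change of the 3′ block lay below that of the other 9 regions combined, with a difference of −0.30 (−0.42 to −0.17). Input of Tet1 was lower in Mettl3 KO in all 10 regions, with a summed log2 difference of −0.91 (−0.96 to −0.86), or −0.59 without the reads of Lars2 and Rn45s.

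Tet2, on the minus strand of chromosome 3, had a larger decrease than Tet1. Its 8 regions together held 212 RPM of m6A-CT in Mettl3 KO and 776 RPM in wild-type, with 52.2 RPM of input in Mettl3 KO and 96.2 RPM in wild-type. The ratio was 4.05 (3.88 to 4.23) in Mettl3 KO and 8.07 (7.82 to 8.33) in wild-type, a log2 change of −0.99 (−1.07 to −0.92) on the RPM scale. Without Lars2 and Rn45s in the totals the ratios were 1.69 in Mettl3 KO and 3.00 in wild-type. The authors' deposited log2 changes of its regions had a median of −1.16 and all lay between −1.90 and −0.78.

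The Tet2 decrease was largest in its 3′ block. In this 4500 bp region (chr3:133126641-133131140) m6A-CT was at 86.1 RPM in Mettl3 KO and 430 RPM in wild-type, and input at 17.7 RPM in Mettl3 KO and 33.0 RPM in wild-type. The ratio was 4.88 (4.53 to 5.25) in Mettl3 KO and 13.0 (12.3 to 13.7) in wild-type, and the authors' deposited log2 change was −1.90 (exomePeak2 FDR 2.62e-174). The 3175 bp region at the 5′ side (chr3:133148488-133151662) had a ratio of 3.43 (3.21 to 3.66) in Mettl3 KO and 5.01 (4.77 to 5.26) in wild-type, with an authors' deposited log2 change of −1.02 (FDR 5.11e-61). The log2 change of the 3′ block lay below that of the other 7 regions combined, with a difference of −0.82 (−0.98 to −0.66). The ratios of the 8 regions lay between 3.43 and 4.88 in Mettl3 KO, and between 4.51 and 13.0 in wild-type. A 100 bp region (chr3:133134326-133134425) was the 1 region not called by the counting test, with ratios of 3.67 (2.87 to 4.68) in Mettl3 KO and 4.51 (3.80 to 5.34) in wild-type. Input of Tet2 was lower in Mettl3 KO in all 8 regions, with a summed log2 difference of −0.88 (−0.95 to −0.81), close to that of Tet1.

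**Figure D3:**
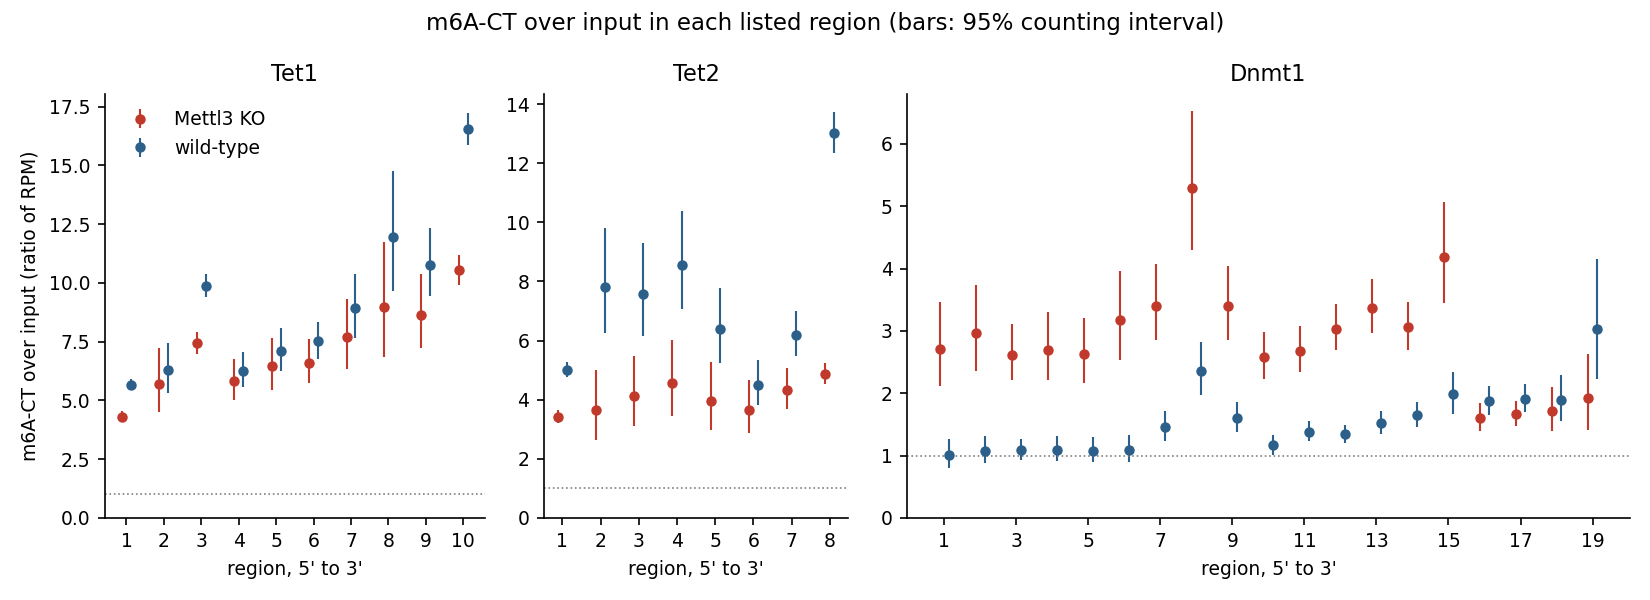
Ratio of m6A-CT to input RPM in each listed region of Tet1, Tet2 and Dnmt1, numbered 5′ to 3′, in Mettl3 KO (red) and wild-type (blue); bars are 95% counting intervals and the dotted line marks a ratio of 1. In the last region the ratio is 10.5 in Mettl3 KO and 16.5 in wild-type for Tet1 and 4.88 in Mettl3 KO and 13.0 in wild-type for Tet2, while in the first 15 regions of Dnmt1 the Mettl3 KO points lie above the wild-type points.

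Dnmt1, on the minus strand of chromosome 9, was split along its length. The boundary between its upstream and downstream parts was placed where the sign of the authors' log2 change turns. Over its 15 upstream regions, between chr9:20757155-20757404 at the 5′ end and chr9:20716630-20716729, the ratio was 3.10 (2.97 to 3.23) in Mettl3 KO and 1.39 (1.34 to 1.44) in wild-type. Over its 4 downstream regions, from chr9:20713556-20713705 to chr9:20711650-20711999, the ratio was 1.67 (1.54 to 1.81) in Mettl3 KO and 1.95 (1.81 to 2.10) in wild-type. In wild-type, then, the summed ratio was lower over the 5′ side than at the 3′ end, and in Mettl3 KO this order was turned. Region by region, the wild-type ratios of the parts overlapped, at 1.00 to 2.36 upstream and 1.87 to 3.04 downstream. In Mettl3 KO they did not, at 2.57 to 5.29 upstream and 1.60 to 1.93 downstream. Without Lars2 and Rn45s in the totals the upstream ratio was 1.29 in Mettl3 KO and 0.515 in wild-type and the downstream ratio 0.694 in Mettl3 KO and 0.723 in wild-type, so that only the upstream part in Mettl3 KO stayed above input.

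The region with the most reads, 125 bp at chr9:20722356-20722480, shows the upstream pattern. It had 22.1 RPM of m6A-CT in Mettl3 KO and 18.1 RPM in wild-type, and 7.29 RPM of input in Mettl3 KO and 13.5 RPM in wild-type. The ratio was 3.04 (2.69 to 3.43) in Mettl3 KO and 1.34 (1.21 to 1.50) in wild-type, with an authors' deposited log2 change of 0.68 (exomePeak2 FDR 3.17e-07). The authors' log2 changes of all 15 upstream regions lay between 0.38 and 1.02, and those from the RPM columns between 0.89 and 1.54. Each of the 15 was higher by the counting test as well, and the ratio intervals of the genotypes overlapped in none of them.

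The 4 downstream regions fell in the authors' deposited table, by log2 changes between −1.16 and −0.60. The region among them with the most reads, chr9:20712919-20713193, had 15.2 RPM of m6A-CT in Mettl3 KO and 19.5 RPM in wild-type, and 9.15 RPM of input in Mettl3 KO and 10.2 RPM in wild-type, with an authors' log2 change of −0.67 (FDR 1.58e-06). Without Lars2 and Rn45s in the totals both columns turned to higher in Mettl3 KO, m6A-CT to a log2 difference of 0.12 and input to 0.16. None of the 4 was called by the counting test, whose log2 values lay between −0.66 and −0.14, and the one at chr9:20712334-20712383 turned to 0.03 without Lars2 and Rn45s in the totals. The difference between the downstream and upstream parts, which does not depend on library totals, was −1.38 on the log2 scale (−1.56 to −1.20). Because the parts were set by the sign of change, a difference in this direction was fixed in advance. The interval does not cover that choice.

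The 2 columns behind the Dnmt1 ratio moved in opposite directions in the upstream part. There m6A-CT was at 184 RPM in Mettl3 KO and 146 RPM in wild-type, a log2 difference of 0.33 (0.28 to 0.39). Input was at 59.3 RPM in Mettl3 KO and 105 RPM in wild-type, a log2 difference of −0.82 (−0.89 to −0.76). In the downstream part m6A-CT was at 34.4 RPM in Mettl3 KO and 47.2 RPM in wild-type, a log2 difference of −0.46 (−0.56 to −0.36), and input at 20.6 RPM in Mettl3 KO and 24.2 RPM in wild-type, a log2 difference of −0.23 (−0.35 to −0.11). Without Lars2 and Rn45s in the totals, input remained lower upstream (−0.51), while downstream input turned to 0.08 and m6A-CT to 0.02.

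Dnmt3a and Dnmt3b had few reads, and their values are correspondingly loose. Dnmt3a, on the plus strand of chromosome 12, had 3 short regions that rose, with authors' deposited log2 changes of 2.33, 1.97 and 1.96 (exomePeak2 FDR 0.0257, 0.00776 and 0.00728). Together they held 202 m6A-CT and 67 input reads in Mettl3 KO and 38 m6A-CT and 57 input reads in wild-type, for a ratio of 4.10 (3.11 to 5.40) in Mettl3 KO and 0.765 (0.507 to 1.15) in wild-type. Without Lars2 and Rn45s in the totals these ratios were 1.71 in Mettl3 KO and 0.284 in wild-type. Its remaining region, a block of 16595 bp at chr12:3849640-3866234, had a ratio of 2.69 (2.06 to 3.51) in Mettl3 KO and 3.96 (2.65 to 5.91) in wild-type. It was lower in the authors' deposited table, with a log2 change of −1.07 (exomePeak2 FDR 0.0154), but was not called by the counting test on the RPM scale (−0.56, adjusted p = 0.141), and its intervals overlap. The noncoding genes Dnmt3aos and Gm31623 overlap Dnmt3a in RefSeq, and whether reads were counted by strand is not given in the sources used here. The same limit holds for Tet1, which the noncoding gene Gm51805 overlaps, and for Dnmt1, which the microRNA gene Mir7081 overlaps.

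Dnmt3b, on the plus strand of chromosome 2, had 3 regions of 25 to 100 bp that start within 3.10 kb of one another at the 5′ side of its listed blocks. Their m6A-CT was at 7.27 RPM in Mettl3 KO and 2.93 RPM in wild-type, and their input at 7.66 RPM in Mettl3 KO and 8.74 RPM in wild-type, a log2 difference of −0.19 that turned to 0.12 without Lars2 and Rn45s in the totals. The ratio was 0.949 (0.813 to 1.11) in Mettl3 KO and 0.335 (0.272 to 0.412) in wild-type. In Mettl3 KO 1 of the 3 regions, at a ratio of 1.11, stood above input with full totals and 0 without Lars2 and Rn45s, and in wild-type 0 did under either total. The authors' deposited log2 changes were 0.91, 1.29 and 0.81 (exomePeak2 FDR 0.0292, 0.00429 and 0.0389).

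Dnmt3l was near the limit of detection. Its 1 region (chr10:77512596-77512645, plus strand) held 9 reads in all, 0 m6A-CT and 5 input reads in Mettl3 KO and 4 m6A-CT and 0 input reads in wild-type. A count of 0 allows up to 0.0799 RPM in Mettl3 KO m6A-CT and 0.0665 RPM in wild-type input. The authors' deposited table gives it a log2 change of −7.46, which rests on these zeros, and no fold is drawn from it here. The gene overlaps Aire in RefSeq, so that reads of the 2 genes may not be told apart.

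The authors' peak lists by genotype, made with MeTPeak, hold 5 peaks of these genes among 20482 in Mettl3 KO and 6 among 20055 in wild-type. They lie in Tet1, Tet2, Dnmt1 and Dnmt3b in each genotype, 4 of 6 genes, where 41.4% of all genes with a position had a peak in Mettl3 KO and 52.1% in wild-type. The fold of a peak is the authors' own value, and how it was computed is not stated. Tet1 was covered by 1 peak per genotype, spanning 13 exon blocks at 38.7-fold in Mettl3 KO and 12 exon blocks at 60-fold in wild-type. This was the second highest fold of the Mettl3 KO list and the 17th of the wild-type list. Tet2 had 2 peaks in Mettl3 KO, of 14.3-fold over 11 blocks and 12.7-fold over a 399 bp stretch at the 3′ end, and 1 peak of 57.5-fold over 10 blocks in wild-type. Dnmt1 had 1 peak over 39 blocks at 11.6-fold in Mettl3 KO, and in wild-type 1 over 28 blocks at 3.86-fold and a second over 4 blocks at 1.45-fold. Dnmt3b had its peaks at the 3′ end of the gene, at 4.5-fold in Mettl3 KO (chr2:153510194-153512422) and at 2.85-fold and 3.67-fold in wild-type. The highest fold was thus lower in Mettl3 KO for Tet1 and Tet2 and higher for Dnmt1 and Dnmt3b, 2 of 4 genes, where 76.7% of the 3953 genes with a peak in both lists were lower in Mettl3 KO. Of the peaks of these genes, that of Dnmt3b in Mettl3 KO had the weakest log10 FDR, −2.02, where its wild-type peaks had −2.46.

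The lists of the other mouse cells, called with MACS2 at −log10 q of at least 10, show where along the same exon blocks peaks lie. The 5 lists hold 4644 peaks for E14 at 5K nuclei, 3923 at 25K and 8052 at 100K, 12183 for EPSC and 38205 for MEF. A peak in exon blocks was found for 4, 3 and 2 of the 6 genes in E14 at 5K, 25K and 100K nuclei, where 14.9%, 9.97% and 19% of all genes had one. In EPSC 3 of the 6 had a peak and in MEF 4, where 27.4% and 39.8% of all genes had one. The level of these RNAs in these cells was not analysed here, so more RNA and more m6A on it cannot be told apart.

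Tet1 had 5, 11 and 10 exonic peaks in E14 at 5K, 25K and 100K nuclei, 12 in EPSC and 1 in MEF. The share of its 14354 listed exonic bp under a peak was 20.5%, 61.0% and 96.0% along the E14 series, 95.4% in EPSC and 4.48% in MEF. At 100K nuclei, 60 of the 11200 genes had more peaks than Tet1 in E14, 89 in EPSC and 3272 in MEF. The single MEF peak (chr10:62302021-62302663, 6.90-fold) lies inside a block of 2203 bp, within a stretch that had peaks in every other list as well. In E14 at 25K nuclei the 3′ block was broken into 8 peaks, while in E14 at 100K nuclei 1 peak of 9084 bp (chr10:62267524-62276607, 9.92-fold) covered it with the block before it. A peak between the exon blocks, at chr10:62319806-62319930 in E14 at 100K nuclei, overlapped one at chr10:62319505-62319977 in EPSC.

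Tet2, like Tet1, had peaks in all 5 lists, with 3, 8 and 9 in E14 at 5K, 25K and 100K nuclei, 7 in EPSC and 5 in MEF. The share of its 8906 listed bp under a peak was 23.2%, 40.9% and 78.2% along the E14 series, 61.1% in EPSC and 67.4% in MEF. Of these bp, 19.5% lay under a peak in all 5 lists, against 4.48% for Tet1. In MEF a single peak of 3153 bp (chr3:133148517-133151669, 7.20-fold) covered nearly the whole large block at the 5′ side, and another of 1863 bp (chr3:133129318-133131180, 10.8-fold) the start of the 3′ block. In E14 at 5K nuclei the longest peak of the gene, 1310 bp (chr3:133129827-133131136, 2.87-fold), lay in this same part of the 3′ block.

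Dnmt1 had most of its peaks in MEF, with 3, 1 and 0 peaks in E14 at 5K, 25K and 100K nuclei, 4 in EPSC and 27 in MEF. Its 7450 listed bp include a block of 2075 bp, most of which lies outside the blocks of the MeTPeak peaks in both genotypes. Peaks covered 4.15%, 4.35% and 0% of these 7450 bp along the E14 series, 10.2% in EPSC and 64.9% in MEF. In MEF they lay in 33 of the 38 blocks that remain once overlapping listed blocks are merged, mostly 1 peak per block, and their folds were low, between 1.56 and 5.52 with a median of 2.25 where the median of all MEF peaks was 4.44. The strongest was at the 5′-most block (chr9:20757075-20757303, 5.52-fold, −log10 q 201). The MEF list is also the longest, and when it is cut to the 3923 peaks with the highest −log10 q, the length of the shortest list, Dnmt1 keeps 2 peaks and Tet1 and Tet2 keep 0, so that 1 of the 6 genes has a peak where 6.94% of all genes do.

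**Figure D4:**
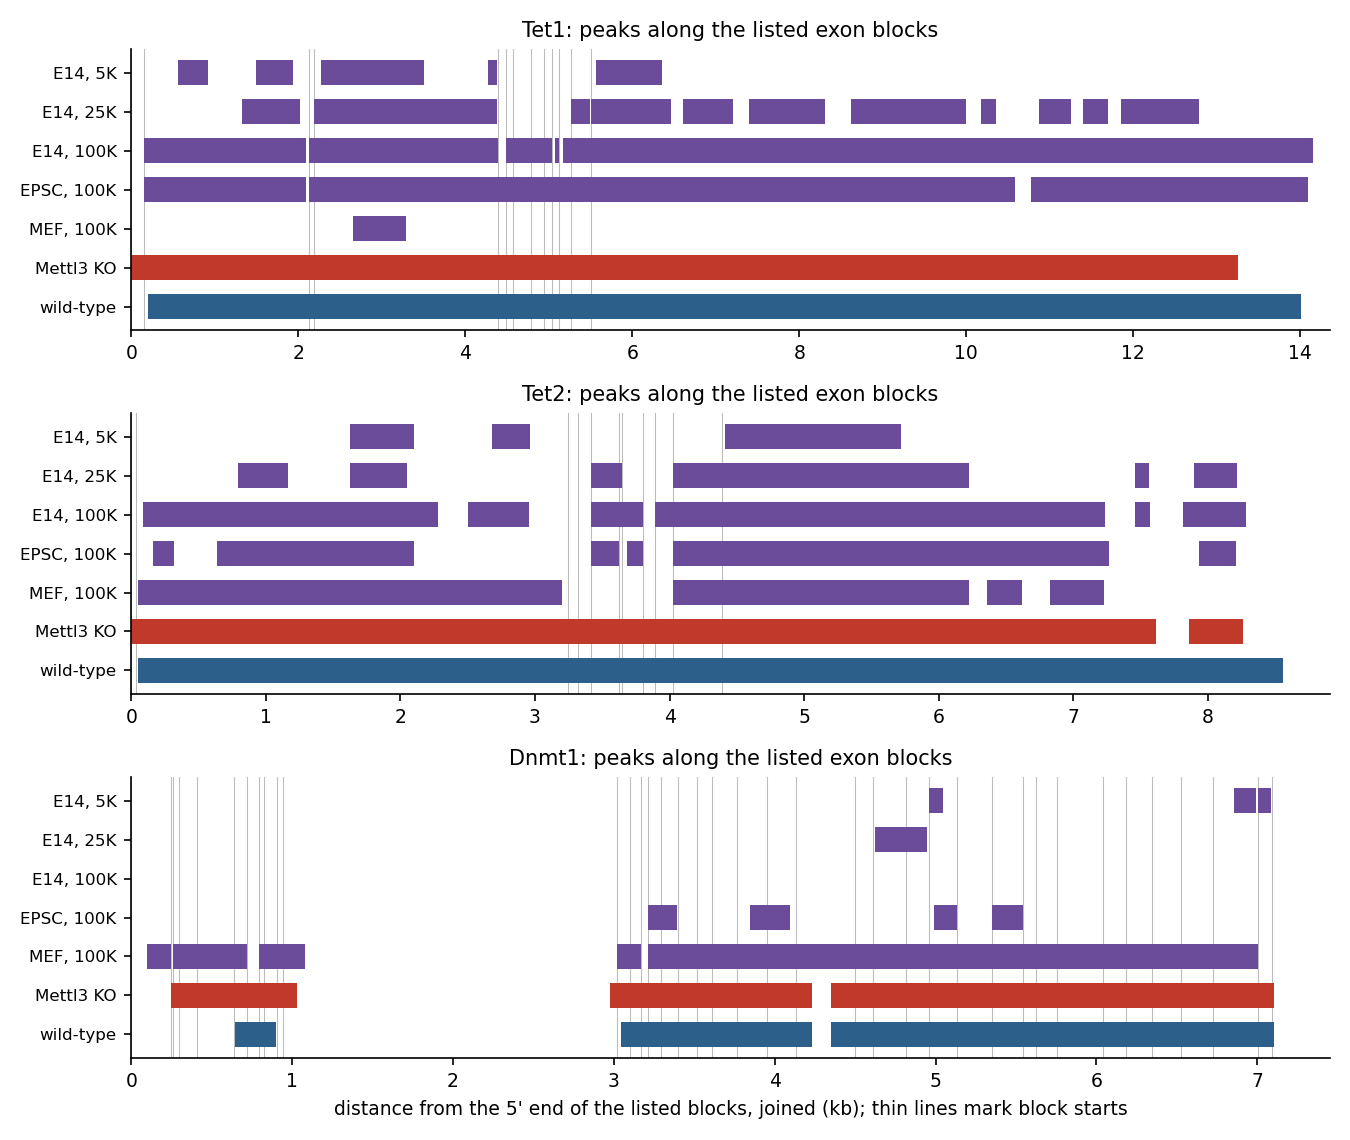
Peaks along the listed exon blocks of Tet1, Tet2 and Dnmt1, joined 5′ to 3′ without introns (x axis, kb); purple bars are MACS2 peaks of the E14 lists at 5K, 25K and 100K nuclei, EPSC and MEF, red and blue bars MeTPeak peaks in Mettl3 KO and wild-type, and thin lines mark block starts. Adjoining bars can be parts of 1 peak or of several; covered shares are 96.0% of Tet1 in E14 at 100K nuclei and 4.48% in MEF, and 0% of Dnmt1 in E14 at 100K nuclei and 64.9% in MEF.

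The de novo methyltransferase genes had almost no peaks. Dnmt3a had 2 in MEF, at both ends of its 16595 bp block (4.36-fold at chr12:3849615-3849810 and 3.68-fold at chr12:3865951-3866287), and 0 in the 4 stem cell lists. Dnmt3b had 1, in E14 at 5K nuclei (chr2:153512069-153512339, 4.82-fold), within the stretch of its MeTPeak peaks at the 3′ end, and Dnmt3l had 0 in all 5 lists. The listed blocks of Dnmt3b cover 873 bp and the one of Dnmt3l 50 bp, so peaks elsewhere in these genes would not be counted.

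Other genes of the DNA methylation cycle were followed as 1 list of 44, chosen with earlier results of these data known. Of these 36 are in the authors' deposited table, and in the region with the most reads 31 were lower and 5 higher in Mettl3 KO (exomePeak2 FDR under 0.05), where 87.4% of 10268 genes were lower. The median log2 change of the list was −0.89 and that of all genes −1.33. On the RPM scale 29 were lower and 7 higher, where 87.8% of all regions were lower. Without Lars2 and Rn45s in the totals 25 were lower and 11 higher, where 83.4% of all regions were lower. These shares of all regions count every region of a gene, not only the region with the most reads. The 5 that rose, of which all but Cdca7l are named after their values were seen, were Cdca7l (authors' log2 change 3.39), Hells (1.04), a chromatin remodeller needed for DNA methylation, Pcna (0.60), the replication clamp, Mat2a (0.56), which makes the methyl donor S-adenosylmethionine, and Trim28 (0.32), a corepressor that holds methylation at imprinted loci.

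Tet3, the third TET gene, had a log2 change of −1.14 in the authors' deposited table (exomePeak2 FDR 1.81e-05), with a ratio of 4.46 in Mettl3 KO and 6.89 in wild-type. It had 12 MeTPeak peaks in wild-type, the highest at 7.67-fold, and 0 in Mettl3 KO. Uhrf1, which brings Dnmt1 to newly replicated DNA, had an authors' log2 change of −0.40 (FDR 3.99e-05), but had nearly equal ratios of 2.18 in Mettl3 KO and 2.01 in wild-type, a log2 change of 0.12 on the RPM scale. Tdg, which excises oxidised methylcytosine, had no region in the table, and its highest MeTPeak fold was 18.6 in wild-type with 0 peaks in Mettl3 KO.

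Those with the largest changes were mostly genes of few reads. Cdca7l had 88 reads and rose by 3.39, and Ahcy, which removes S-adenosylhomocysteine, had 73 reads and a change of −2.78 (exomePeak2 FDR 0.000999 and 0.012). Idh1, Uhrf2, Gadd45b, Ehmt1, Kdm1b and Mbd2 had authors' deposited log2 changes of −2.16, −2.04, −1.96, −1.83, −1.54 and −1.51. Idh1 makes the alpha-ketoglutarate that TET enzymes use, Uhrf2 is a relative of Uhrf1, Gadd45b a stress gene linked to DNA demethylation, Ehmt1 a histone H3 lysine 9 methyltransferase, Kdm1b a histone demethylase of oocytes and Mbd2 a reader of methylated DNA. A MACS2 peak was found in 11, 8 and 11 genes of the list in E14 at 5K, 25K and 100K nuclei, 12 in EPSC and 21 in MEF, of 39 with a position. Of all genes with a position, 14.9%, 9.97% and 19% had one along the E14 series, 27.4% in EPSC and 39.8% in MEF.

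Genes most like a member were sought by the distance over 3 values of the read-richest region, namely the log2 ratio of m6A-CT to input in each genotype and the log2 difference of input. These values share the same 4 pooled columns, and 5336 genes had at least 50 reads in each. Nearest to Tet1 were Strbp (distance 0.145) with ratios of 10.9 in Mettl3 KO and 16.5 in wild-type, and Knl1 (0.231) with 11.1 in Mettl3 KO and 14.2 in wild-type. Nearest to Tet2 were Purb (0.132) with 4.80 in Mettl3 KO and 12.1 in wild-type, and Ankrd49 (0.149) with 4.45 in Mettl3 KO and 12.6 in wild-type. Nearest to Dnmt1 were Elp2 (0.0662) with 3.15 in Mettl3 KO and 1.35 in wild-type, and Bzw1 (0.0838) with 2.92 in Mettl3 KO and 1.38 in wild-type. Dnmt3a, Dnmt3b and Dnmt3l had too few reads for this comparison.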

How the data were processed

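m6A-CT and input libraries were analysed through the files deposited by the authors, not from reads. The tools were Trim Galore, STAR 2.7.2 and MACS2, with the mouse build mm9, per the submitters' processing notes; pooling of replicates is not given in the sources used here. MeTPeak and exomePeak2 are named by the labels of the genotype set, without version or settings.

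Each MACS2 peak has a deposited score, equal to 10 times its −log10 q. The deposited ratio is the fold enrichment at the summit, −log10 of p and of q are deposited as the caller gave them, and the other deposited column is the summit offset. In the MeTPeak lists the authors give a fold (a ratio over input), a p-value as score, and log10 of p and FDR. The exomePeak2 table gives deposited RPM in 4 columns, and 100% of them came out as whole reads within 0.01 reads. Its deposited log2 fold change, p-value and FDR compare the m6A-CT over input ratio of the genotypes. The authors' log2 values lie at a median of −0.50 from the RPM-based ones.

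From these, reads, RPM sums, ratios and 95% counting intervals were computed with Python 3.11.15, numpy 2.4.6, pandas 2.3.3 and scipy 1.17.1, and figures with matplotlib 3.10.9. Since PCR copies cannot be told from separate molecules here, the intervals and the limit of 3 reads for a count of 0 cover counting error only. edgeR needs a column per library and was not run; in its place a Wald test of the log ratio of ratios with 0.5 reads added, Benjamini-Hochberg over 33473 regions, compared the pooled libraries. It called 22180 regions, of which 22169 were also called by the authors. Since the authors called 33391 of the 33473 regions, nearly any set of regions would overlap theirs to this degree. Tested on simulated data, it recovered 70.5% of 200 regions lowered 4-fold among 33473. The simulated reads carried counting error only, so the simulation does not show how the test behaves with spread between libraries. Regions as short as 25 bp hold many reads, so a level per length depends on how reads at region edges were counted, which is not given in the sources used here, and levels were not compared between genes.

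Exon blocks were the union of those in the 3 genotype files. A MACS2 peak was counted for a gene at 1 bp of overlap, without regard to strand. RefSeq symbols of GRCm38.p6 served for names of overlapping genes only. All regions and peaks of the 6 genes were described; from the list of 44 further genes, Tet3, Uhrf1 and Tdg and the 8 with the largest absolute authors' log2 change among those with at least 50 reads were named. Members and lists were chosen with earlier results of these data known. The alternatives tried were the RPM scale, totals without Lars2 and Rn45s, summed or median regions, a minimum of 50 reads, the counting test, pseudocounts, stricter peak thresholds, equal list length, and other overlap rules.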

Additional observations from a re-analysis of the deposited data

How the results depend on the processing

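Over 74 values, 302 alternatives were computed. The ratio of m6A-CT to input of Dnmt1 in wild-type, in its region with the most reads, was 1.34. It fell to 0.498, below input, without Lars2 and Rn45s. Single regions of Tet1 and Dnmt1 and some summed values of Dnmt1 and Dnmt3b changed direction without Lars2 and Rn45s, as given above. Among changes between the genotypes in the region with the most reads of each gene, directions held except for 2 results. The input of Dnmt3b in its region with the most reads, −0.25 on the log2 scale, turned to 0.06 without Lars2 and Rn45s. The other is Dnmt3a, whose 16595 bp block (−1.07 in the authors' table) gave −0.56 (adjusted p = 0.141) from RPM and −0.39 (adjusted p = 0.331) with totals that leave out Lars2 and Rn45s by the counting test, and whose value turned to 0.82 with all 4 regions summed (RPM scale) and to 1.97 as their median (authors' scale), as the 3 short regions then enter. With regions summed on the RPM scale the changes were −0.53 for Tet1, −0.99 for Tet2 and 0.87 for Dnmt1, and as medians of the authors' values −0.77 for Tet1 and −1.16 for Tet2. The counting test called 10 member regions lower, and 9 without Lars2 and Rn45s, an alternative chosen after seeing the data.

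The log2 difference of input in the region with the most reads was −0.83 for Tet1, −0.59 for Tet2 and −0.58 for Dnmt1 without Lars2 and Rn45s. With regions summed it was −0.91 for Tet1, −0.69 for Dnmt1 and 0.57 for Dnmt3a. Over the 4 downstream regions of Dnmt1, also added after seeing the data, it was −0.23, and 0.08 without Lars2 and Rn45s. At a fold of at least 5, 2 MeTPeak peaks of these genes were left in wild-type. At −log10 q of at least 20, 3 peaks were left in E14 at 5K nuclei and 10 at 25K. With lists cut to 3923 peaks, 12 were left in EPSC and 2 in MEF, in 1 gene, and with exomePeak2 blocks alone 23 in MEF. The cause of these shifts was not tested beyond what each alternative leaves out.

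No paired analysis was possible because the files hold no value per library, and for the same reason no replicate was left out in turn. Depth limits Dnmt3a, Dnmt3b and Dnmt3l most, and the depth behind the MACS2 lists is unknown.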

Other observations

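The split of Dnmt1, with its higher regions upstream and its lower regions downstream in Mettl3 KO, was set beside other genes of the authors' deposited table after its values were seen. Of 551 genes with at least 10 called regions, 65 had regions in both directions. A further count took genes with at least 3 regions called higher and at least 3 called lower. There were 56, Dnmt1 among them. In 27 of these all higher regions lay upstream of all lower ones, as in Dnmt1, and in 3 the order was the reverse. Among the 27 are the ubiquitin ligase gene Huwe1, with 18 regions higher and 5 lower, the fatty acid synthase gene Fasn, with 6 higher and 14 lower, and the deubiquitinase gene Usp9x, with 9 higher and 4 lower. Trim28, of the list of DNA methylation genes, had 4 higher and 3 lower regions in mixed order. The counts are a description of pooled libraries with no replicate error, and no test was made of them. They rest on the authors' calls alone, whose log2 values lie at a median of −0.50 from the RPM-based ones. In Dnmt1 the counting test called 0 regions lower and left the 4 downstream ones uncalled.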
